A study of Homo sapiens with 12 samples.

Results

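VHL and 9 other genes of the hypoxia-inducible factor (HIF) pathway were described in 3 human renal carcinoma cell lines in which the activity of the microRNA miR-29 had been raised or blocked. The members were listed by symbol: VHL, HIF1A, EPAS1, ARNT, EGLN1, EGLN2, EGLN3, HIF1AN, CA9 and NDRG1, that is 10 of the 58051 genes counted in each library, and each symbol matched 1 gene. Expression was measured by RNA sequencing after depletion of ribosomal RNA in 12 libraries. 786-O cells were transfected with a control mimic (1 library) or a miR-29 mimic (1 library), A-498 cells with a control mimic (2 libraries) or a miR-29 mimic (2 libraries), and ACHN cells with a control inhibitor (3 libraries) or a miR-29 inhibitor (3 libraries). Every oligonucleotide was given at 10 nM with a lipid reagent, and RNA was taken 48 h later. A mimic is a synthetic RNA that adds the activity of a microRNA, and an inhibitor is one that blocks it. The labels call all 3 lines clear cell renal cell carcinoma. Because 786-O and A-498 carried a control mimic where ACHN carried a control inhibitor, the line and the control oligonucleotide cannot be told apart when lines are compared. The labels do not say whether the lines were sequenced in the same run. Line and run therefore cannot be told apart either, also between 786-O and A-498.

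HIF is a transcription factor made of an oxygen-regulated α subunit, HIF-1α (gene HIF1A) or HIF-2α (gene EPAS1), and a constant partner, ARNT. When oxygen is present, the prolyl hydroxylases EGLN1, EGLN2 and EGLN3 mark the α subunit, the VHL protein recognises the mark and directs the subunit to degradation, and the asparagine hydroxylase HIF1AN restrains the activity of what remains. This control acts on protein, which RNA counts do not show. Loss of VHL is the founding lesion of most clear cell renal carcinomas, in which HIF stays on, and carbonic anhydrase CA9 and NDRG1 are HIF target genes widely read as signs of it. 786-O and A-498 are known as lines without functional VHL and ACHN as a line that keeps it, which was not measured here.

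Because the treatments act through miR-29, the mature sequences of its 3 human members are shown first, 5′ to 3′ as given by RefSeq, with the seed (bases 2 to 8), the part that pairs with a target, in capitals.
hsa-miR-29a-3p: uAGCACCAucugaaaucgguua
hsa-miR-29b-3p: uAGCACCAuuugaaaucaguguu
hsa-miR-29c-3p: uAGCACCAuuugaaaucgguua
All 3 share the seed AGCACCA. Its reverse complement, TGGTGCT, was searched on the transcribed strand of the longest 3′ UTR of each member annotated in GENCODE (GRCh38). It was present in 3 of the 10 members, VHL, ARNT and HIF1AN, and 17.7% of 19588 protein-coding genes held it. The matches are printed with 14 bases before and 7 after, on the strand of the gene, with TGGTGCT in capitals.
VHL, chr3:10153635-10153662, plus strand: tttaatacattaaaTGGTGCTgagtaaa
ARNT, chr1:150811151-150811178, minus strand: gttactgctgctttTGGTGCTctcacct
HIF1AN, chr10:100554939-100554966, plus strand: agttcgtccccatgTGGTGCTctcagat
HIF1AN, chr10:100556963-100556990, plus strand: gactctcaagataaTGGTGCTtgaagtg
The VHL match lay 3684 nt after the stop codon, near the end of a 3′ UTR of 3702 nt, and the ARNT match lay 1244 nt after it in a 3′ UTR of 2314 nt. The HIF1AN matches lay 6816 and 8840 nt after the stop codon in a 3′ UTR of 11861 nt. NDRG1 held only a shorter match of 6 bases, 741 nt after the stop codon, and HIF1A, EPAS1, EGLN1, EGLN2, EGLN3 and CA9 held none. These are matches of letters and not measured binding sites.

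Reads assigned to genes numbered from 39919554 to 70027392 per library. The share of reads not assigned to a single gene was 45.7% and 48.0% in the 2 libraries of 786-O and from 37.2% to 40.6% in the other 10. Reads that were ambiguous between genes made up 3.57% and 3.87% in 786-O and from 6.14% to 9.06% in the other 10. The part of either share in the differences between lines was not tested. A list of 8 genes was set as markers of renal carcinoma lines, not of epithelium alone. Of these, 7 (PAX8, PAX2, LHX1, KRT8, KRT18, VIM and GGT1) exceeded 1 CPM (reads of the gene for each 1000000 reads in genes) in every library. The exception was CDH6, at 0.0955 to 0.325 CPM in ACHN against 275 to 523 CPM in A-498. Of 8 markers of other cell types, 7 (PTPRC, CD3E, CD68, PECAM1, CDH5, VWF and ALB) stayed at or below 0.390 CPM, and ACTA2 ranged from 2.57 to 34.2 CPM.

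The first comparison asked how the pathway stood in the control libraries of the 3 lines. The HIF target genes and EGLN3, itself a HIF target, differed most, with NDRG1, EGLN3 and CA9 far higher in A-498 than in ACHN, whereas VHL, the subunits and the other hydroxylases differed at most 3.44-fold between lines. A-498 differed from ACHN in all 10 members, 6 lower and 4 higher (edgeR quasi-likelihood test, Benjamini-Hochberg adjusted p under 0.05), where 36.6% of 21737 genes tested were called lower and 38.7% higher. 786-O differed from ACHN in 7 members, 3 lower and 4 higher, against 36.4% and 37.2% of all genes, and from A-498 in 9, 6 lower and 3 higher, against 38.8% and 35.9%. With about 3 in 4 of all genes called in each of these contrasts (75.3%, 73.6% and 74.7%), the number of members called was not particular to them, and the sizes of the differences carry the description. 786-O had 1 control library, which was assumed to vary like those of A-498 and ACHN. In bulk RNA, fewer cells expressing a gene and less of its RNA per cell cannot be told apart.

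**Figure D1:**
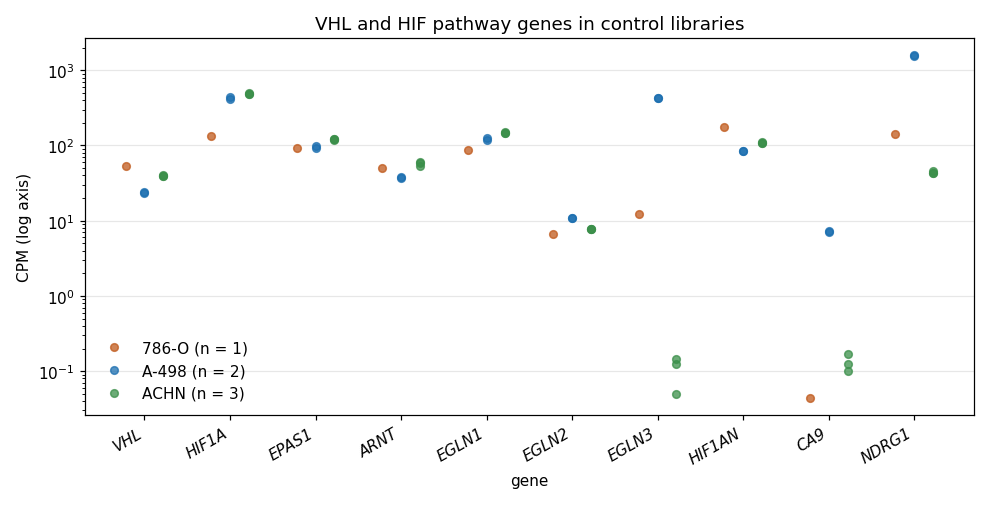
CPM (log axis) of the 10 genes in the control libraries of 786-O (n = 1), A-498 (n = 2) and ACHN (n = 3), with 1 point per library. NDRG1, EGLN3 and CA9 spread the most between lines, EGLN3 from 0.0501 to 428 CPM.

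VHL, at chr3:10141778-10153667 on the plus strand, encodes the substrate receptor of the ligase. Its level was 53.9 CPM in 786-O, 23.7 and 24.2 CPM in A-498, and 39.4, 40.1 and 39.5 CPM in ACHN. The lines did not overlap, in the order 786-O, ACHN, A-498, and each step passed the test (786-O against ACHN log2 fold change 0.53 ± 0.07 (SE), edgeR adjusted p = 5.99e-08; A-498 against ACHN -0.75 ± 0.06, adjusted p = 7.97e-13). VHL mRNA was thus present in all 3 lines, and a count per gene does not show whether the transcript encodes a working protein.

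HIF1A (chr14:61695513-61748259, plus strand) was at 134 CPM in 786-O, 419 and 439 CPM in A-498, and 497, 483 and 487 CPM in ACHN. 786-O was the low line, 3.44-fold below ACHN (log2 fold change -1.78 ± 0.06, edgeR adjusted p = 2.50e-22), and A-498 was slightly below ACHN (-0.21 ± 0.04, adjusted p = 2.67e-05). EPAS1 (chr2:46293667-46386697, plus strand) was at 92.1 CPM in 786-O, 99.7 and 93.3 CPM in A-498, and 117, 121 and 121 CPM in ACHN. Both 786-O (-0.29 ± 0.06, edgeR adjusted p = 5.60e-05) and A-498 (-0.34 ± 0.05, adjusted p = 6.78e-08) were below ACHN for EPAS1. The difference between 786-O and A-498 did not pass the test (0.05 ± 0.06, edgeR adjusted p = 0.465), and its sign turned under scaling by library size alone. ARNT (chr1:150809713-150876708, minus strand) was at 49.8 CPM in 786-O, 37.6 and 37.3 CPM in A-498, and 53.1, 60.5 and 58.7 CPM in ACHN. A-498 was the low line for this common partner (-0.64 ± 0.06 against ACHN, edgeR adjusted p = 2.48e-11), and 786-O and ACHN did not pass the test (-0.11 ± 0.07, adjusted p = 0.162). The 786-O and ACHN difference in ARNT did pass without ACHN control replicate 1 (-0.17, edgeR adjusted p = 0.0393), under scaling by library size alone (-0.21, adjusted p = 0.0171) and without the filter on low counts (-0.18, adjusted p = 0.0323).

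Among the hydroxylases, EGLN1 (chr1:231363751-231422287, minus strand), the main oxygen sensor of most cells, was at 88.4 CPM in 786-O, 119.6 and 127 CPM in A-498, and 151, 146 and 148 CPM in ACHN. The lines did not overlap, and 786-O was below A-498 (-0.37 ± 0.06, edgeR adjusted p = 3.07e-06), which was below ACHN (-0.29 ± 0.04, adjusted p = 6.03e-07). EGLN2 (chr19:40798996-40808434, plus strand) was at 6.75 CPM in 786-O, 11.0 and 10.8 CPM in A-498, and 7.88, 7.76 and 7.69 CPM in ACHN. A-498 was higher than ACHN (0.46 ± 0.08, edgeR adjusted p = 7.87e-06), while 786-O and ACHN did not pass the test (-0.12 ± 0.11, adjusted p = 0.359). On its strand EGLN2 shares 2012 of 6574 exon bases (30.6%) with the read-through gene RAB4B-EGLN2, which was listed at 0 in all 12 libraries, so reads in the shared bases may be missing from the EGLN2 counts.

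EGLN3 (chr14:33924227-34462774, minus strand) showed the widest range of the 10. It was at 12.3 CPM in 786-O, 428 and 426 CPM in A-498, and 0.123, 0.143 and 0.0501 CPM in ACHN, where the 3 control libraries held 14 reads in all. The lines stood far apart: per read in genes, EGLN3 was 3981 times as frequent in A-498 as in ACHN (95% exact interval 2372 to 7282, counting error only) and 115 times as frequent in 786-O as in ACHN (67.9 to 212), and both differences passed the test (edgeR adjusted p = 7.71e-39 and 7.80e-26). HIF1AN (chr10:100529072-100559998, plus strand) was at 174 CPM in 786-O, 84.5 and 85.0 CPM in A-498, and 108, 113 and 108 CPM in ACHN. It followed the same order of lines as VHL, with 786-O above ACHN (0.76 ± 0.05, edgeR adjusted p = 3.19e-14) and A-498 below it (-0.40 ± 0.04, adjusted p = 1.42e-09).

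CA9 (chr9:35673928-35681159, plus strand), an enzyme that acidifies the space around the cell, stood above 1 CPM in A-498 only. It was at 0.0445 CPM (2 reads) in 786-O, 7.31 and 7.17 CPM in A-498, and at most 0.167 CPM in ACHN, where the 3 libraries held 6, 7 and 4 reads. A-498 was 55.5 times ACHN (95% exact interval 34.5 to 95.8) and 163 times 786-O (44.9 to 1344), and 786-O and ACHN could not be separated at this depth (ratio 0.342, interval 0.0383 to 1.44). CA9 shares 571 of its 1598 exon bases with ARHGEF39 on the other strand, and the counts were made by strand. NDRG1 (chr8:133237175-133302022, minus strand), a stress-induced gene of differentiation, was at 142 CPM in 786-O, 1596 and 1524 CPM in A-498, and 42.7, 45.7 and 42.8 CPM in ACHN. The 3 lines did not overlap: A-498 was 35.0-fold above ACHN (log2 fold change 5.13 ± 0.05, edgeR adjusted p = 5.24e-37) and 786-O was 3.47-fold above it (1.79 ± 0.05, adjusted p = 1.42e-23).

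Levels of different genes were compared per kilobase of annotated exons. In ACHN control cells HIF1A led at 94.9 ± 1.43 CPM per kb (SD, n = 3), followed by EGLN1 at 27.6 ± 0.522 and EPAS1 at 16.4 ± 0.302, with NDRG1 at 3.64 ± 0.145 and EGLN3 last at 0.0143 ± 0.00667 CPM per kb. In A-498 control cells NDRG1 led at 130.0 ± 4.21 CPM per kb (SD, n = 2), followed by HIF1A at 83.3 ± 2.85 and EGLN3 at 58.0 ± 0.206, with VHL at 4.79 ± 0.0792 and EGLN2 last at 1.66 ± 0.0230 CPM per kb. In the control library of 786-O, HIF1A led at 26.0 CPM per kb, with EGLN1 at 16.4, EPAS1 at 12.6, HIF1AN at 12.5, NDRG1 at 11.9, VHL at 10.8 and CA9 last at 0.0279 CPM per kb. Dividing by the longest transcript instead placed EGLN3 (150.0 CPM per kb) above HIF1A (108 CPM per kb) in A-498, and NDRG1 (35.8 CPM per kb) above HIF1A (33.8 CPM per kb) in 786-O.

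The second comparison asked what the miR-29 mimic did to the pathway in A-498. NDRG1 fell 3.63-fold, EGLN3 fell 1.86-fold and ARNT fell 1.61-fold, whereas HIF1AN rose 1.69-fold and CA9 rose by 0.59 on the log2 scale, so the HIF target genes did not move one way. HIF1A, EPAS1 and EGLN2 fell by smaller amounts, and VHL and EGLN1 did not pass the test. In all, 6 of 10 members were called lower and 2 higher (edgeR, adjusted p under 0.05), where 27.0% of 19676 genes tested were lower and 25.5% higher (52.5% in all). The median log2 fold change was -0.19 over the members and 0.0045 over all genes tested. Of all genes called, 51.4% were lower, against 41.3% under scaling by library size alone, and 4 members were then lower and 3 higher.

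NDRG1 was at 1596 and 1524 CPM with the control mimic and at 459 and 447 CPM with the miR-29 mimic. Its log2 fold change was -1.86 ± 0.03 (SE, 2 against 2 libraries, edgeR adjusted p = 6.89e-14), and even so the mimic libraries stayed far above every ACHN library. EGLN3 was at 428 and 426 CPM with the control and at 246 and 239 CPM with the mimic, a log2 fold change of -0.90 ± 0.04 (edgeR adjusted p = 8.42e-11). CA9 went the other way, from 7.31 and 7.17 CPM to 11.7 and 11.3 CPM (0.59 ± 0.08, edgeR adjusted p = 2.72e-05). In all 3 genes the control and mimic libraries did not overlap. The share of all genes that did so with 2 against 2 libraries was not counted, so this is not particular to them.

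ARNT, which holds a seed match, was at 37.6 and 37.3 CPM with the control and at 24.6 and 24.4 CPM with the mimic, a log2 fold change of -0.69 ± 0.05 (edgeR adjusted p = 8.45e-08). HIF1AN, which holds 2 matches, moved from 84.5 and 85.0 CPM up to 151 and 151 CPM (0.76 ± 0.04, edgeR adjusted p = 1.19e-09). VHL, which holds 1, was at 23.7 and 24.2 CPM with the control and at 24.1 and 26.5 CPM with the mimic, where the groups overlapped and the change after TMM scaling was 0.0033 ± 0.06 (edgeR adjusted p = 0.972). The 3 members with the seed match therefore took 3 different courses in A-498.

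HIF1A was at 419 and 439 CPM with the control and at 402 and 381 CPM with the mimic, and EPAS1 at 99.7 and 93.3 CPM and at 89.2 and 91.8 CPM. The α subunits fell by 0.21 ± 0.04 and 0.17 ± 0.05 on the log2 scale (edgeR adjusted p = 0.000440 and 0.00643), but the EPAS1 call was lost under scaling by library size alone (adjusted p = 0.105) and without mimic replicate 1 (adjusted p = 0.0873). EGLN2 was at 11.0 and 10.8 CPM with the control and at 9.81 and 9.86 CPM with the mimic (-0.22 ± 0.08, edgeR adjusted p = 0.0246), a call lost without either mimic replicate (adjusted p = 0.108 without replicate 1 and 0.112 without replicate 2), with DESeq2 (0.119) and under library size alone (0.126). EGLN1 was at 119.6 and 127 CPM with the control and at 138 and 133 CPM with the mimic. These EGLN1 groups did not overlap in CPM but did after TMM scaling. The fitted change of 0.05 ± 0.04 did not pass the test (edgeR adjusted p = 0.335), though it did under library size alone (0.13, adjusted p = 0.0205).

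**Figure D2:**
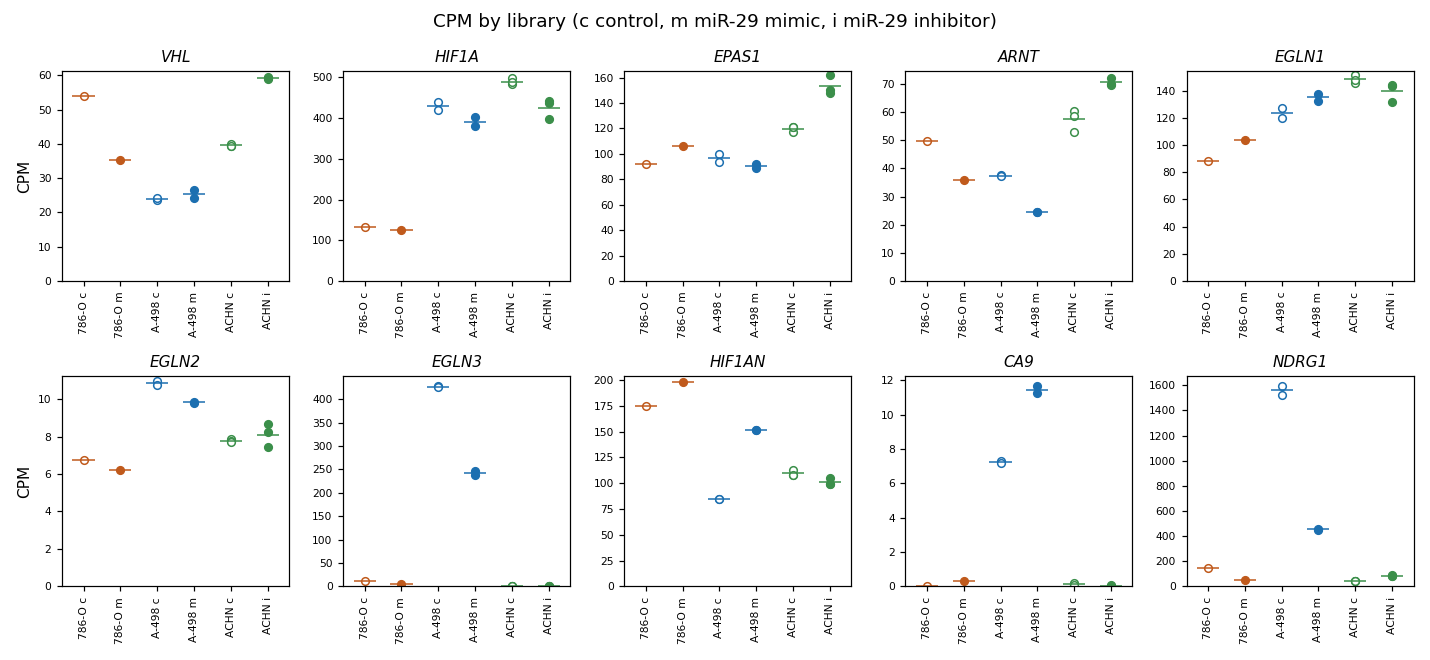
CPM of each gene in each library (1 point per library, open for control and filled for treated), with the group mean as a line. In A-498 NDRG1, EGLN3 and ARNT were lower and HIF1AN and CA9 higher with the mimic (m) than with its control (c), and in ACHN VHL, EPAS1, ARNT and NDRG1 were higher with the inhibitor (i).

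The third comparison asked the converse in ACHN, where miR-29 was blocked. NDRG1 rose 1.95-fold, VHL rose 1.51-fold, EPAS1 rose 1.29-fold and ARNT rose 1.24-fold, and HIF1A fell 1.14-fold. EGLN3 and CA9 had too few reads to be tested, so 8 of 10 members were tested, of which 1 was called lower and 4 higher (edgeR, adjusted p under 0.05), where 14.4% of 17904 genes tested were lower and 17.3% higher (31.7% in all). The median log2 fold change was 0.19 over the 8 members and 0.0038 over all genes tested.

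VHL was at 39.4, 40.1 and 39.5 CPM with the control inhibitor and at 59.3, 59.5 and 59.0 CPM with the miR-29 inhibitor. The groups stood apart by far more than their spread (log2 fold change 0.59 ± 0.04, 3 against 3 libraries, edgeR adjusted p = 5.00e-09). ARNT was at 53.1, 60.5 and 58.7 CPM with the control and at 69.5, 72.3 and 70.0 CPM with the inhibitor, without overlap (0.31 ± 0.05, edgeR adjusted p = 8.01e-05). HIF1AN, the other gene with seed matches, was at 108, 113 and 108 CPM with the control and at 99.6, 105 and 99.5 CPM with the inhibitor. These groups did not overlap and the change did not pass the test (-0.11 ± 0.04, edgeR adjusted p = 0.0840), but it did with DESeq2 (adjusted p = 0.0298) and without inhibitor replicate 2 (edgeR adjusted p = 0.0156).

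EPAS1 was at 117, 121 and 121 CPM with the control and at 148, 162 and 150.5 CPM with the inhibitor (0.37 ± 0.05, edgeR adjusted p = 6.12e-06). HIF1A moved the other way, from 497, 483 and 487 CPM to 441, 397 and 436 CPM (-0.19 ± 0.04, edgeR adjusted p = 0.00207). Neither gene's groups overlapped, so the 2 α subunit genes moved apart in ACHN, where in A-498 both were lower with the mimic.

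NDRG1 was at 42.7, 45.7 and 42.8 CPM with the control and at 82.3, 90.0 and 81.2 CPM with the inhibitor (0.96 ± 0.05, edgeR adjusted p = 5.35e-11). Every inhibitor library was above every control library. CA9 held 6, 7 and 4 reads in the control libraries and 4, 2 and 1 in the inhibitor libraries, a ratio of 0.290 per read in genes (95% exact interval 0.102 to 0.735, counting error only). That decrease passed the test only in a single fit of all 12 libraries (edgeR adjusted p = 0.0208) and not without the filter on low counts (adjusted p = 0.104). EGLN3 held 6, 6 and 2 reads in the control libraries and 4, 7 and 10 in the inhibitor libraries, a ratio of 1.06 (0.512 to 2.24).

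EGLN1 was at 151, 146 and 148 CPM with the control and at 144, 132 and 144 CPM with the inhibitor (-0.07 ± 0.05, edgeR adjusted p = 0.266). EGLN2 was at 7.88, 7.76 and 7.69 CPM with the control and at 7.42, 8.65 and 8.25 CPM with the inhibitor (0.07 ± 0.08, edgeR adjusted p = 0.569). Neither of these hydroxylase genes passed the test. The EGLN2 groups overlapped, and the EGLN1 groups were apart in CPM but overlapped after TMM scaling.

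In 786-O each group had 1 library, so the mimic is described by ratios without a test. NDRG1 was at 142 CPM with the control and 48.3 CPM with the mimic (log2 ratio -1.59), and EGLN3 was at 12.3 and 5.93 CPM (log2 ratio -1.09). These were the 2 members lower by at least 2-fold, where 9.08% of 20370 genes were. CA9 was the 1 member higher by at least 2-fold, where 6.69% of genes were, but on 2 reads with the control and 14 with the mimic (ratio 7.08, 95% exact interval 1.63 to 64.2, and log2 ratio 1.99 with a prior count of 2).

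VHL was at 53.9 CPM with the control and 35.3 CPM with the mimic (log2 ratio -0.65), and ARNT at 49.8 and 35.8 CPM (-0.51). HIF1A was at 134 and 125 CPM (-0.13), and EGLN2 at 6.75 and 6.20 CPM (-0.16). HIF1AN was at 174 and 198 CPM (0.15), EGLN1 at 88.4 and 104 CPM (0.20), and EPAS1 at 92.1 and 106 CPM (0.17). In this pair 6 of 10 members had a log2 ratio below 0, as had 51.6% of all genes.

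A test of interaction over 6 libraries asked whether the mimic acted differently in the lines 786-O and A-498, with the spread taken from A-498 alone. The effect differed in 5 of 10 members (edgeR, adjusted p under 0.05), where 29.6% of 22587 genes did. Of all genes called there, 44.4% were lower, against 58.4% under library size alone. On the log2 scale the effect in 786-O minus that in A-498 was -0.59 ± 0.10 for VHL (edgeR adjusted p = 0.000183), which was lower with the mimic in 786-O and level in A-498 within its error. For HIF1AN it was -0.55 ± 0.07 (edgeR adjusted p = 3.45e-06), the rise being that of A-498. EPAS1 differed by 0.39 ± 0.08 (edgeR adjusted p = 0.000835), NDRG1 by 0.32 ± 0.07 (adjusted p = 0.000806) and CA9 by 2.20 ± 0.80 (adjusted p = 0.0467). For ARNT (0.24 ± 0.10, edgeR adjusted p = 0.0695), EGLN1 (0.20 ± 0.08, adjusted p = 0.0567), EGLN3 (-0.14 ± 0.10, adjusted p = 0.352), HIF1A (0.14 ± 0.07, adjusted p = 0.174) and EGLN2 (0.12 ± 0.16, adjusted p = 0.634) the difference did not pass. None of the 5 calls was kept when the biological coefficient of variation was set to 0.2 in place of the value of 3.84% estimated from A-498.

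**Figure D3:**
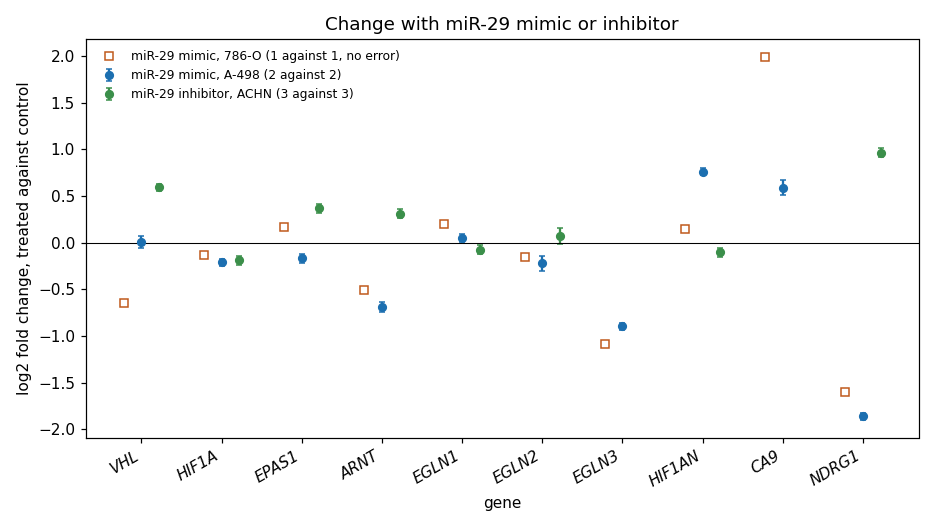
Log2 fold change of each gene, treated against control, for the mimic in 786-O (open squares, 1 against 1 library, no error), the mimic in A-498 (2 against 2) and the inhibitor in ACHN (3 against 3), with bars of 1 standard error. NDRG1 and ARNT lay below 0 with the mimic in both lines and above 0 with the inhibitor, and HIF1A lay below 0 in all 3.

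Mimic and inhibitor were then set side by side, since opposite treatments were given in lines with separate controls. Of the 8 members tested in both A-498 and ACHN, 3 (NDRG1, ARNT and EPAS1) fell with the mimic and rose when miR-29 was blocked, as did 10.5% of 16708 genes tested in both. The EPAS1 fall in A-498 was small (-0.17), and its call was lost under scaling by library size alone (edgeR adjusted p = 0.105). With the mimic in 786-O, the log2 ratio of EPAS1 had the other sign (0.17, 1 against 1 library). None took the opposite course, rising with the mimic and falling when miR-29 was blocked, which 7.37% of genes did, and HIF1AN had those signs without passing the test in ACHN (0.76 in A-498 and -0.11 in ACHN). NDRG1 had the widest opposite shift of the members, -1.86 in A-498 and 0.96 in ACHN. HIF1A was called lower with both treatments.

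**Figure D4:**
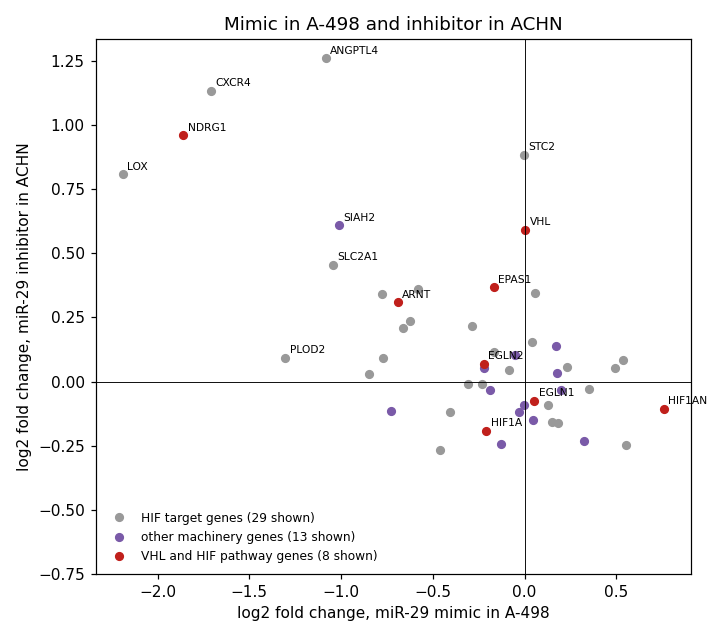
Log2 fold change with the mimic in A-498 (horizontal) against that with the inhibitor in ACHN (vertical), 1 point per gene, for the 8 pathway genes tested in both, 13 further machinery genes and 29 of the 30 further HIF target genes tested. NDRG1 lies at -1.86 and 0.96 beside the target genes LOX, CXCR4 and ANGPTL4, and HIF1A lies below 0 on both axes. CXCR4 had few reads in ACHN (average log2 CPM -1.95). Its change there did not pass the test (1.13 ± 0.43, edgeR adjusted p = 0.0545).

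The rest of the pathway was read from 14 further genes of the HIF machinery, of which 13 were tested in each comparison, and from 31 further HIF target genes, of which 30 were tested. With the mimic in A-498, 4 machinery genes were lower and 4 higher, and 16 target genes were lower and 8 higher, against 27.0% lower and 25.5% higher among all genes. The median log2 fold change of the target genes was -0.26, that of the members -0.19 and that of all genes 0.0045. Among the target genes LOX, a collagen cross-linking enzyme (-2.19 ± 0.08, edgeR adjusted p = 3.47e-11), and CXCR4, a chemokine receptor (-1.71 ± 0.05, adjusted p = 2.45e-12), fell beside NDRG1. PLOD2 (-1.31) and ANGPTL4 (-1.08) fell too, and PFKFB4 (0.55), HK2 (0.54) and CCND1 (0.49) rose, as CA9 did. In the machinery SIAH2, a ligase that degrades prolyl hydroxylases (-1.01 ± 0.06, edgeR adjusted p = 5.37e-09), CITED2 (-0.73), SIAH1 (-0.22) and RBX1 (-0.19) fell. ELOC (0.33) and ELOB (0.17), the elongins that bind VHL, the scaffold CUL2 (0.20) and LIMD1 (0.17) rose, in cells where VHL did not pass the test. In the machinery list, 2 genes were called lower under scaling by library size alone and without mimic replicate 2, and 2 were called higher when either mimic replicate was left out.

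With the inhibitor in ACHN, 3 machinery genes were lower and 2 higher, and 3 target genes were lower and 11 higher, against 14.4% and 17.3% of all genes. The median log2 fold change was 0.09 over the target genes and 0.0038 over all genes. ANGPTL4 (1.26 ± 0.05, edgeR adjusted p = 5.68e-12), STC2 (0.88) and LOX (0.81) rose with NDRG1, and BNIP3 (-0.16) and PGK1 (-0.16) fell. SIAH2 rose (0.61 ± 0.05, edgeR adjusted p = 9.52e-08) with ELOB (0.14), and ARNT2 (-0.25), ELOC (-0.23) and VBP1 (-0.15) fell.

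In 786-O the genes named for A-498 gave log2 ratios, without a test, of -0.86 for LOX, -0.60 for PLOD2, -0.06 for ANGPTL4, -0.49 for PFKFB4, 0.09 for HK2 and 0.47 for CCND1, beside -1.59 for NDRG1. CXCR4 held 0 reads with the control and 3 with the mimic. Of 29 target genes with enough reads, 2 were lower by at least 2-fold, STC2 (-1.24) and SLC2A1 (-1.06), and 0 were higher. Of all 20370 genes, 9.08% were lower and 6.69% higher by that much. In A-498 SLC2A1 fell too (-1.05 ± 0.04, edgeR adjusted p = 2.55e-11), while STC2 did not pass the test (-0.0057 ± 0.06, adjusted p = 0.944). Among 13 machinery genes only SIAH2 was lower by that much (-1.40), and 0 were higher, with CITED2 at -0.07, SIAH1 at -0.54, RBX1 at 0.16, ELOC at 0.31, CUL2 at -0.04, ELOB at -0.03 and LIMD1 at -0.02.

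In the control libraries the target genes differed between lines in both directions, as the members did. Against ACHN, A-498 had 12 lower and 15 higher of 30 target genes, where 36.6% of all genes tested were lower and 38.7% higher. 786-O had 12 lower and 13 higher against ACHN, beside 36.4% and 37.2% of all genes. Against A-498 it had 19 lower and 9 higher, beside 38.8% and 35.9% of all genes. CA12, a carbonic anhydrase like CA9, was 8.38 ± 0.06 higher on the log2 scale in A-498 than in ACHN (edgeR adjusted p = 2.31e-39), with ADM (16.0-fold) also higher, and HK2 (-2.16), FAM162A (-1.95), LOX (-1.71) and PDK1 (-1.67) lower. The rise of CA12 and ADM was not particular to A-498. In 786-O, CA12 (3.83 ± 0.08, edgeR adjusted p = 6.39e-28), PLOD2 (2.37) and ADM (2.26) were above ACHN, and ANGPTL4 (-6.14), LOX (-3.36) and VLDLR (-1.86) below it. Of the 13 machinery genes, A-498 had 6 lower and 4 higher than ACHN. 786-O had 5 lower and 7 higher than ACHN, and 4 lower and 6 higher than A-498, beside the same shares of all genes. EP300 and CREBBP, the coactivators whose contact with HIF the HIF1AN protein hinders, were higher in 786-O than in ACHN (2.80 ± 0.06 and 2.54 ± 0.06, edgeR adjusted p = 2.81e-27 and 1.54e-26), at 222 CPM for EP300 in the control library of 786-O against 33.0 to 35.5 CPM in ACHN.

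HIF binds DNA at the core letters ACGTG or GCGTG, which were searched on both strands of the 300 bases around the start sites in the RefSeq promoter table (GRCh38). Promoters of 8 members were in the table, HIF1A, EPAS1, ARNT, EGLN1, EGLN2, EGLN3, HIF1AN and CA9. Of these 8 members, 5 held either set of letters in at least 1 promoter, where 48.4% of 35116 promoters did. HIF1A and EGLN2 each had more than 1 promoter, of which 1 held neither. The count by gene and the share by promoter are thus not like for like, and no excess can be read from them. ACGTG alone was held by the genes EGLN1, EGLN2 and CA9, counted in the same way, and by 21.4% of all promoters. The CA9 match is shown for the member with the widest difference between A-498 and 786-O, and the EGLN1 match for a hydroxylase with the same letters near its start, each with ACGTG or its reverse complement CACGT in capitals.
CA9, chr9:35673898-35673926, plus strand: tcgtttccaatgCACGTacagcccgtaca
EGLN1, chr1:231422284-231422312, minus strand: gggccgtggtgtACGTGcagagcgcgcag
The CA9 match began 18 bases and the EGLN1 match 13 bases before the start site. In EGLN2, 1 window held ACGTG on both strands in overlapping letters. HIF1A and EPAS1 each held 1 GCGTG, and the windows of ARNT, EGLN3 and HIF1AN held neither.

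The genes most like 5 of the members over the 12 libraries were found by Pearson r of log2 CPM among genes of at least 3 log2 CPM on average. The 12 libraries come from 3 lines, so these values mostly describe likeness of order between lines. NDRG1 was most like TFDP2 (r = 0.996), PCYT2 (0.992) and ATP10D (0.989), and CA9 was most like HLCS (0.992), the pseudogene RPL7P1 (0.991) and POP4 (0.988). VHL was most like GTPBP2 (0.979), SAMD4A (0.978) and KLHL28 (0.975), HIF1A was most like PUM3 (0.996), IFT57 (0.996) and NAE1 (0.994), and EPAS1 was most like CTIF (0.993), ERO1B (0.966) and PGPEP1 (0.965). NDRG1 and CA9, both high in A-498, shared none of these genes.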

How the data were processed

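RNA was measured in 12 libraries of 786-O, A-498 and ACHN cells, grouped by their labels. The authors depleted ribosomal RNA, made stranded libraries, aligned reads to GRCh38 with HISAT2 and deposited raw counts per Ensembl gene (release 87) from HTSeq, by strand. The study called the libraries biological replicates and set 2 A-498 libraries aside for doubtful labels, which were not analysed here. Its tables of log2 fold changes and p-values from DESeq2 were not used. Of the 58051 genes, 56948 (98.1%) had a symbol in GENCODE release 44, and 5 summary lines per table (37.2% to 48.0% of reads) stayed out of library sizes.

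CPM used reads in genes alone. Fold changes came from edgeR 4.0.16 in R 4.3.3 (TMM, filterByExpr by group, glmQLFTest, Benjamini-Hochberg over all genes tested, called at adjusted p under 0.05). The test was checked on simulated counts for contrasts of A-498 and ACHN in which far fewer genes changed than were called here. No contrast with 786-O and no interaction was simulated. The 6 control libraries shared 1 fit, A-498 and ACHN had their own, and the interaction used the 6 libraries of 786-O and A-498 (3 mimic, 3 control). 786-O ratios used a prior count of 2 and genes of at least 10 reads. Ratios of few reads carry 95% exact intervals that cover counting error only. Replicates differed beyond sampling noise (chi-square divided by its degrees of freedom 3.60 to 11.0), with a biological coefficient of variation of 3.83% for A-498 and 5.25% for ACHN. Alternatives were DESeq2 1.42.0, other scalings, filters and thresholds, and leaving out libraries.

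The members and gene lists were chosen with earlier results of these data known. Besides the members, the text names, per tested comparison, up to 4 list genes lower and 4 higher with the largest change among genes of at least 3 log2 CPM on average and no overlap of groups. The 786-O values are those of the genes named for A-498. SLC2A1 and STC2 in 786-O, and their values in A-498, were named after their values were seen. Some genes that the rule names are not reported here. For 5 members the 3 genes with the highest r are named.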

Additional observations from a re-analysis of the deposited data

Results flagged for a closer look

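With the spread of A-498 taken for both lines, the effect of the mimic differed between 786-O and A-498 in 5 members (edgeR interaction, adjusted p under 0.05). For VHL the difference, 786-O minus A-498, was -0.59 on the log2 scale (adjusted p = 0.000183), between -0.65 (786-O) and 0.0033 (A-498). For HIF1AN it was -0.55 (edgeR adjusted p = 3.45e-06), between 0.15 and 0.76. For EPAS1 it was 0.39 (edgeR adjusted p = 0.000835), between 0.17 and -0.17, and for NDRG1 it was 0.32 (adjusted p = 0.000806), between -1.59 and -1.86. For CA9 it was 2.20 (edgeR adjusted p = 0.0467), between 1.99 on 2 and 14 reads and 0.59. The spread came from A-498 alone because 786-O had 1 library per group, so whether 786-O varies as little was not tested. With the biological coefficient of variation set to 0.2 none of the 5 passed (edgeR adjusted p = 0.833 for VHL, 0.862 for HIF1AN, 0.960 for EPAS1, 0.988 for NDRG1 and 0.412 for CA9), and CA9 also did not pass under library size alone (0.0608) or in a single fit of all 12 libraries (0.0516).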

How the results depend on the processing

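Over the alternatives run, counts of members and lists stayed within 1.5 times the reported one in 357 cases and moved further in 21. With a biological coefficient of variation of 0.2 the interaction called 0 members, 0 machinery genes in either direction and 0 target genes in either direction (all genes 182 lower and 99 higher against 2972 and 3723), with 1 member (CA9), 0 machinery genes and 5 target genes at an unadjusted p under 0.05. Under library size alone the A-498 machinery list had 2 lower, and the interaction 4 machinery genes lower and 3 higher. At adjusted p under 0.01 the interaction had 0 machinery genes lower, and ACHN had 1 machinery gene higher (all genes lower 1640 against 2578). DESeq2 (adding HIF1AN) and a single fit of all 12 libraries (adding CA9) each called 2 members lower in ACHN. With no minimum count, 786-O had 1 target gene higher, and 3277 genes lower and 2435 higher in all against 1850 and 1362.

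Leaving out 1 library at a time gave 2 (without mimic replicate 2) to 5 machinery genes lower and 2 (without either mimic replicate) to 4 higher in A-498. In ACHN it gave 1 to 2 (without inhibitor replicate 2) members lower, 2 to 5 (without inhibitor replicate 2) machinery genes lower and 1 (without control replicate 2, control replicate 3 or inhibitor replicate 1) to 2 higher. In A-498 this left 1 library in an arm, assumed to vary like the other arm. Changes that passed no test turned sign as follows. VHL with the mimic in A-498 was -0.026 without the filter on low counts, -0.0074 with DESeq2, -0.0086 in the fit of all 12 libraries, and from -0.065 (without mimic replicate 2) to 0.061 (without mimic replicate 1) when 1 library was left out, with -0.023 without control replicate 1. EGLN1 there ranged from -0.0016 (without control replicate 1) to 0.087, and EPAS1 in 786-O against A-498 was -0.066 under library size alone and ranged from -0.0059 (without A-498 control replicate 3) to 0.094 with 1 library left out. The CA9 interaction was lost in the fit of all 12 libraries (edgeR adjusted p = 0.0516) and under library size alone (0.0608). The cause was not tested. Library size alone moved the median of all genes in 786-O against A-498 from -0.07 to -0.18, a shift of -0.12.

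With a replicate block in ACHN, 1 member was lower and 4 higher, 12 target genes were higher, and 2638 genes were lower and 3125 higher. Same-numbered ACHN libraries deviated together by correlations of -0.05 to 0.04 only, and 1 of 3 controls correlated best with its own number, so the numbers were not taken to pair the libraries. No paired analysis was possible in A-498 and 786-O because their groups share fewer than 2 replicate numbers.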
